A study of Mus musculus with 12 samples.

Results

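The genes described here act in ribosome biogenesis or belong to the nucleolus, and 54 of them were measured among the 19938 genes that had a probe set of a single symbol on the arrays. Of these, 30 were taken by their symbols (Nop, Utp and Rrp followed by a digit, and Polr1 followed by a letter from a to h). For Polr1 only the letters a to e were found. The polymerase I subunits Twistnb, Cd3eap and Znrd1 bear other symbols in the annotation and are described below with other genes of the pathway. The other 24 were taken by name from a list of 25, of which Noc2l had no probe set of its own here. Where a gene had several probe sets, as Fbl, Wdr12 and Polr1d did, the brightest by its mean over the 12 arrays was used, and this mean is the only measured value that the rule names: probe sets were chosen by it, and no difference between groups entered the rule. The genes were proposed with results of these data in view and the sources do not say how the list of 25 was picked. The listed genes are therefore given as a description, with differences and their standard errors, and p-values are given only for the genes taken by symbol. Where a listed gene is said to be called, the same threshold on the adjusted p was used, and the call too is a description. Counts over the 54 for FSH/EGF against control include 11 higher and 2 lower calls of listed genes.

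Ribosomes are assembled in the nucleolus, where RNA polymerase I transcribes a long precursor of the ribosomal RNAs. A large particle called the small subunit processome folds and cleaves the precursor, small nucleolar ribonucleoproteins (snoRNPs) guide the methylation and pseudouridylation of its bases, and separate sets of assembly factors finish the small and the large subunit before export. In many cell types these genes follow growth signals, and the transcription factor Myc is known to promote the expression of many of them.

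RNA came from cumulus cells, the somatic cells that surround the oocyte in the ovarian follicle, and was measured on 12 Affymetrix arrays in 3 groups of 4. Cumulus-oocyte complexes were taken from female 129SV mice aged 21 to 26 days, 44 h after 5 IU of equine chorionic gonadotropin, in the presence of 1 µM cilostamide, a phosphodiesterase inhibitor, and were cultured for 8 h at 20 complexes per 50 µL drop. The control group received 293H control medium at 0.125% (v/v), and the FSH/EGF group received the same medium with follicle stimulating hormone at 50 mIU/ml and epidermal growth factor at 10 ng/ml. The GDF9 group received GDF9, a growth factor that oocytes secrete, at 20 ng/ml, and the labels name no control medium for it. Whole complexes were treated, so the cumulus cells stayed in contact with the oocyte until it was removed by pipetting. Of 8 preparations per condition RNA was pooled in pairs, so each array is a pool of 2 preparations and the p-values measure the spread between such pools.

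Values are log2 intensities, so a difference of 1 is a 2-fold difference, and the median over all probe sets was 5.41 to 5.53 on every array. Correlations between arrays of the same group were 0.971 to 0.995. Control array 1 stood apart, with an estimated quality weight of 0.269 against 0.485 to 2.04 for the other arrays, and it was the lowest control array for 36 of the 54 genes. Control array 4 was the highest control array for 28 of them, and the median of 16 oocyte markers was 5.96 on it against 4.63 to 4.98 on the other 11 arrays. The median of 10 cumulus and granulosa markers was 8.95 to 9.24 on the control and GDF9 arrays and 7.97 to 8.31 on the FSH/EGF arrays. With FSH/EGF 8 of the 10 were called lower than in control, 1 was called higher, by 1.02, and 1 was not called. Of markers of other cells, 3 of 7 theca and stroma genes (of which Acta2 differed by -2.34) and both red blood cell genes were called lower with FSH/EGF, 2 of 6 endothelial genes (of which Cdh5 differed by 3.18) and 1 of 5 leukocyte genes (Cd68) were called higher, and 1 of 16 oocyte genes was called lower. The medians by array lay at 5.41 to 5.82 in control and 5.01 to 5.38 with FSH/EGF for theca and stroma, and at 4.69 to 4.87 and 4.88 to 4.98 for endothelial genes. The part of these differences in the results was not tested. Fewer cells of a type and less RNA per cell cannot be told apart in such samples.

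The first comparison asks how FSH/EGF changed these genes. Of 22 genes for factors of the small ribosomal subunit 16 were called higher and 1 lower. Among the 54 were 6 genes for core snoRNP proteins, and none of these was called. Of 5 RNA polymerase I subunits 1 was called higher, Polr1e, and 2 lower, Polr1a and Polr1d, the latter by its brighter probe set alone. Over all 54 genes, 25 (46.3%) passed the threshold (adjusted p under 0.05 in limma over all 35399 probe sets) upward, 5 (9.26%) downward and 24 did not pass. The background was 21.9% of all 19938 genes upward and 14.9% downward, but among the 9748 genes at least as bright as the dimmest of the 54 it was 38.1% upward and 17% downward. The share of the 54 that was higher thus lay near that of other genes of their brightness. The median difference was 0.28 over the 54 genes, 0.16 over the bright genes and -0.07 over all genes. Of the 30 genes taken by symbol alone, 14 (46.7%) rose and 3 (10%) fell, with a median of 0.22.

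The arrays showed the same split. The 4 FSH/EGF arrays lay above all 4 control arrays for 24 of the 54 genes and below all of them for 4, where 39.1% of the bright genes lay above and 17.8% below (22.4% and 19.6% of all genes). By array, the median over the 54 genes relative to the control mean was -0.20, 0.07, 0.00 and 0.13 in control, 0.40, 0.09, 0.13 and 0.20 with GDF9, and 0.24, 0.29, 0.25 and 0.25 with FSH/EGF. The FSH/EGF arrays were thus close to each other, while control array 1 and GDF9 array 1 lay apart from their groups in opposite directions. The counts depended on the scaling of the arrays. With a second quantile normalization 14 genes were higher, all among the 25, and 10 were lower, with a median of 0.09. The higher share was then 25.9% of the 54, beside 17.4% of all genes and 27.5% of the bright genes, whose median was 0.01. Of the bright genes 23.2% were called lower there. With control array 1 left out 23 (42.6%) were higher and 5 lower, with a median of 0.21, beside 36% and 17% of the bright genes.

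**Figure D1:**
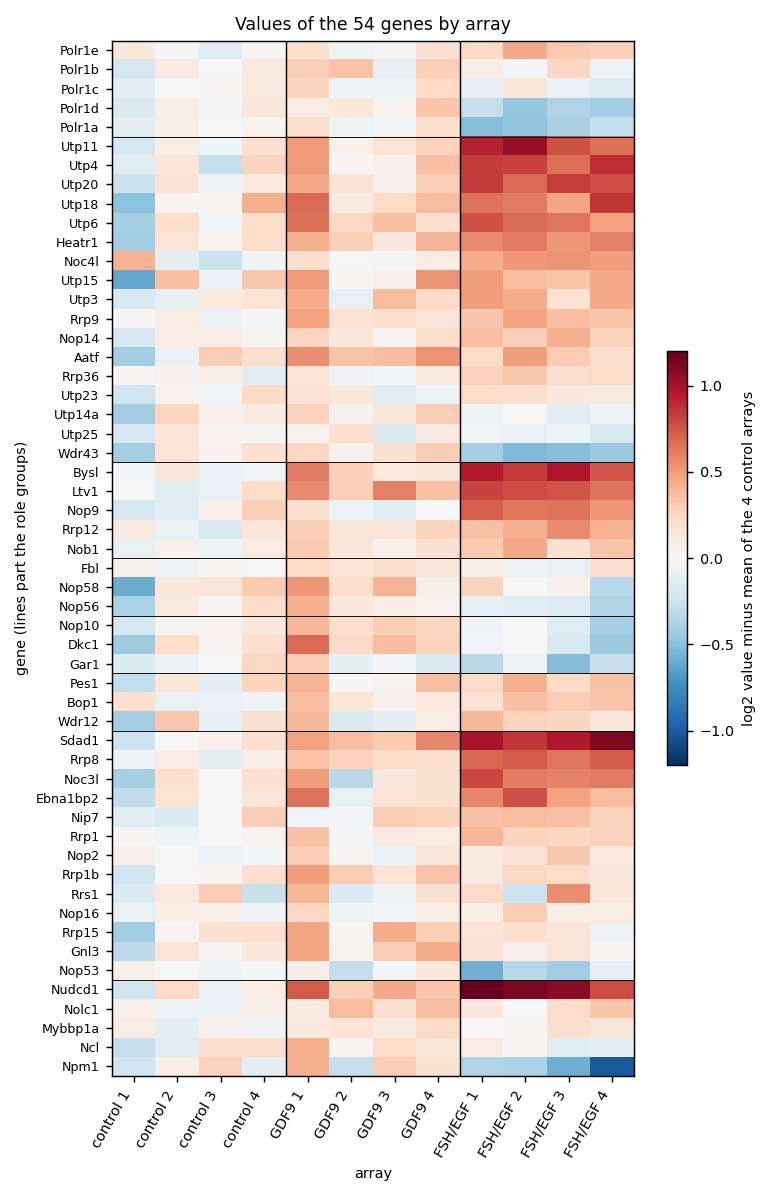
Values of the 54 genes (rows, in their role groups) on the 12 arrays (columns), as the log2 value minus the mean of the 4 control arrays, in colour. Small subunit genes such as Utp11, Utp20 and Bysl are red on all 4 FSH/EGF arrays, Polr1a, Polr1d and Wdr43 are blue there, and control array 1 is blue for many rows.

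**Figure D2:**
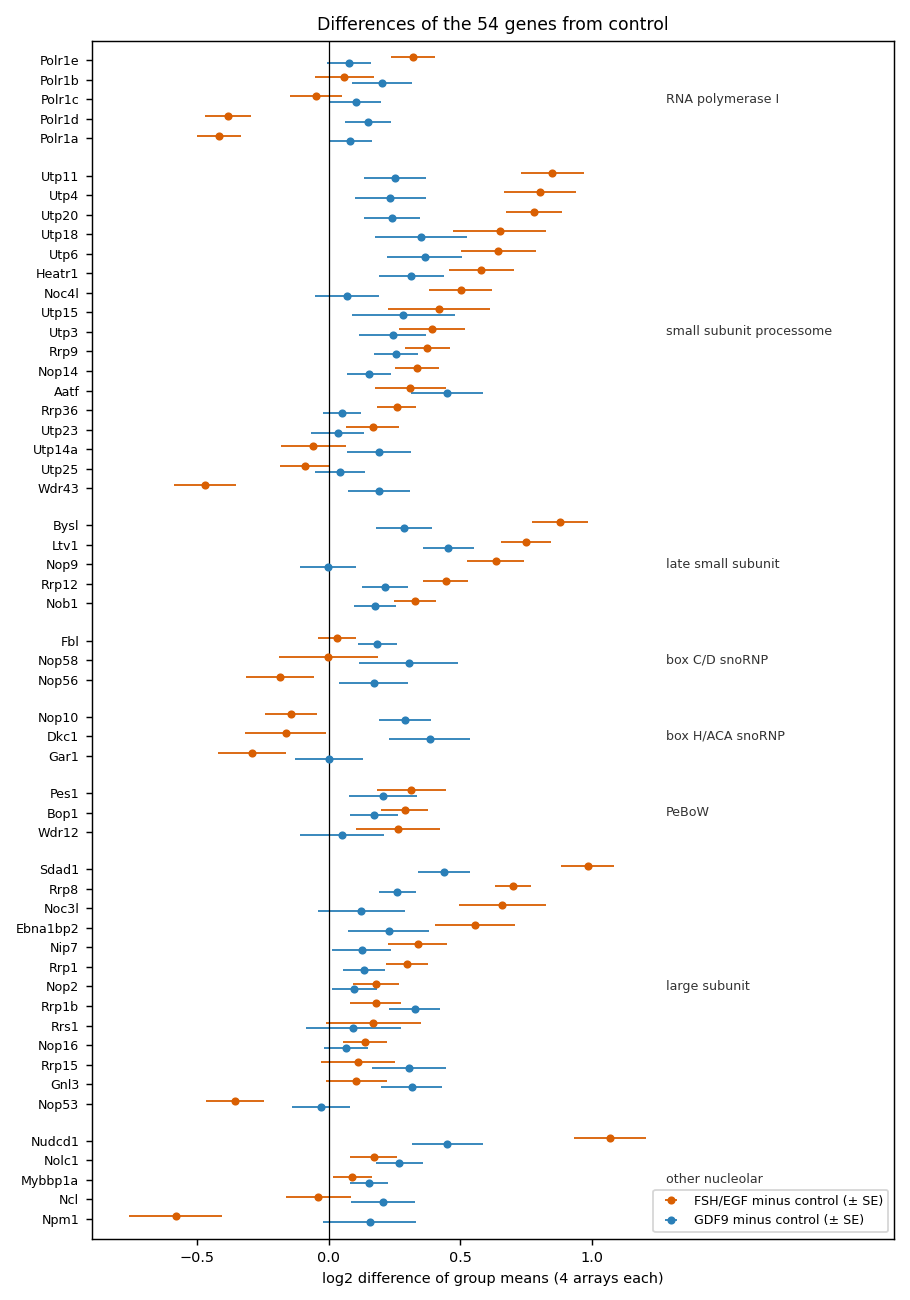
Difference from control (log2, x axis) of each of the 54 genes, by role, for FSH/EGF (orange) and GDF9 (blue), with bars of 1 standard error and 4 arrays per group. With FSH/EGF the genes run from -0.58 (Npm1) to 1.07 (Nudcd1), and with GDF9 from -0.03 (Nop53) to 0.45.

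The RNA polymerase I subunits moved in both directions. Polr1a encodes the largest, catalytic subunit (probe set 10539042). It read 8.18, 8.38, 8.31 and 8.35 on the control arrays, 8.50, 8.26, 8.29 and 8.51 on the GDF9 arrays and 7.80, 7.83, 7.92 and 8.01 on the FSH/EGF arrays. Every FSH/EGF array was below every array of the other groups, and Polr1a fell by 0.42 ± 0.08 (SE) on the log2 scale, a 1.34-fold lower level (adjusted p = 0.00213). Polr1e, a subunit found only in polymerase I, read 6.75, 6.61, 6.50 and 6.64 in control and 6.85, 7.08, 6.94 and 6.91 with FSH/EGF. It rose by 0.32 ± 0.08 (adjusted p = 0.0115), without overlap between the groups, and missed the threshold under quantile normalization (0.20, adjusted p = 0.1003). Polr1d, shared between polymerases I and III, read 8.05, 8.30, 8.20 and 8.36 in control and 7.95, 7.76, 7.87 and 7.81 with FSH/EGF, a difference of -0.38 ± 0.09 (adjusted p = 0.00555). Its dimmer probe set gave the opposite sign, 0.18 ± 0.10 (adjusted p = 0.194), and the mean of both gave -0.10 (adjusted p = 0.223), so the call of Polr1d rests on the choice of probe set. For Polr1b, the second-largest subunit, the difference was 0.06 (95% interval -0.19 to 0.30), and for Polr1c, also shared with polymerase III, it was -0.05 (-0.26 to 0.16).

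The small subunit genes held most of the higher ones. The role groups were assigned by hand, and differences between their shares were not tested. Of 17 genes of the processome 11 were called higher and 1 lower, and of 5 genes of later small subunit maturation all 5 were called higher. Over both groups 16 of 22 (72.7%) were higher, with a median of 0.43, against 38.1% of the bright genes. Of the 22, Heatr1, Noc4l, Aatf, Wdr43, Bysl, Ltv1 and Nob1 were taken by name, with results of these data in view. Aatf of these was not called, Wdr43 was called lower and the others were called higher, so the shares are a description. Under quantile normalization 10 of the 22 were higher and 2 lower, with a median of 0.30, beside 27.5% and 23.2% of the bright genes. Under equal array medians 16 were higher and 1 lower, beside 41.1% and 12.8% of the bright genes.

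In the processome, Utp11 read 6.02, 6.31, 6.18 and 6.41 on the control arrays, 6.74, 6.29, 6.40 and 6.51 with GDF9 and 7.16, 7.28, 6.99 and 6.90 with FSH/EGF (probe set 10516229). The FSH/EGF arrays were the highest of all 12, and the gene rose by 0.85 ± 0.12, which is 1.80-fold (adjusted p = 0.00015). Utp4, of the subcomplex that joins the precursor first, read 8.40, 8.67, 8.25 and 8.79 in control and 9.37, 9.35, 9.19 and 9.41 with FSH/EGF, a rise of 0.80 ± 0.14 (adjusted p = 0.000682). Utp20, a large scaffold protein, read 7.03, 7.46, 7.25 and 7.41 in control and 8.12, 7.97, 8.12 and 8.06 with FSH/EGF, a rise of 0.78 ± 0.11 (adjusted p = 0.000129). Utp18, which in yeast brings RNA exosome activity to the processome, was the most variable of the 4 in control. It read 5.77, 6.30, 6.28 and 6.70 there, 6.95, 6.37, 6.51 and 6.63 with GDF9 and 6.91, 6.88, 6.74 and 7.12 with FSH/EGF. It rose by 0.65 ± 0.18 over control (adjusted p = 0.0148), with its highest control array just below the lowest FSH/EGF array.

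The other processome genes taken by symbol that rose were Utp6, Utp3, Rrp9, Nop14 and Rrp36, by 0.26 to 0.64. The call of Utp6 held under all 22 alternatives, while all the others lost theirs under quantile normalization. Utp3 lost its call under 8 of the 22, the replicate block among them (adjusted p = 0.0545), Rrp36 under 5, Nop14 under 2 and Rrp9 under 1. Utp6 read 6.63 on control array 1 and up to 7.25 on the other control arrays, 7.69, 7.28, 7.39 and 7.22 with GDF9 and 7.80, 7.71, 7.67 and 7.52 with FSH/EGF, a rise of 0.64 ± 0.14 over control (adjusted p = 0.00433). Rrp9, a protein of the U3 snoRNP that works in the processome, read 7.45, 7.52, 7.34 and 7.40 in control, 7.92, 7.60, 7.62 and 7.59 with GDF9 and 7.76, 7.91, 7.79 and 7.76 with FSH/EGF. Both treated groups of Rrp9 lay above all control arrays, and it rose by 0.38 ± 0.08 with FSH/EGF (adjusted p = 0.00489). Utp15 (0.42 ± 0.20), Utp23 (0.17 ± 0.10), Utp25 (-0.09 ± 0.09) and Utp14a did not pass the threshold. Utp15 read 6.17 on control array 1 and 6.71 to 7.14 on the other control arrays, which overlapped the FSH/EGF arrays at 7.12 to 7.28. Utp14a had the smallest difference of the group, -0.06 (95% interval -0.33 to 0.21). Of the listed genes, Heatr1, a scaffold of the same first subcomplex, lay 0.58 ± 0.12 higher and Noc4l, a partner of Nop14, lay 0.50 ± 0.12 higher, the latter not called under quantile normalization. Wdr43, also of that subcomplex, lay lower. It read 9.10, 9.68, 9.56 and 9.70 in control, 9.76, 9.56, 9.69 and 9.80 with GDF9 and 9.11, 8.98, 9.00 and 9.06 with FSH/EGF, a difference of -0.47 ± 0.12. Only control array 1 overlapped the FSH/EGF arrays.

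The 5 genes of later small subunit maturation lay higher on every FSH/EGF array than on any control array. Bysl, which encodes bystin, a factor of late small subunit particles, read 6.62, 6.78, 6.57 and 6.62 in control, 7.26, 6.93, 6.77 and 6.78 with GDF9 and 7.60, 7.49, 7.61 and 7.40 with FSH/EGF. The FSH/EGF level was 1.84-fold that of control, a difference of 0.88 ± 0.11. Ltv1, which is released when the small subunit matures, read 6.62, 6.49, 6.55 and 6.85 in control, 7.20, 6.92, 7.23 and 6.98 with GDF9 and 7.44, 7.41, 7.38 and 7.28 with FSH/EGF. The FSH/EGF level lay 0.75 ± 0.10 higher, and here the GDF9 arrays too lay above all control arrays. Of the genes taken by symbol, Nop9 read 6.56, 6.64, 6.81 and 7.05 in control, 6.95, 6.71, 6.63 and 6.76 with GDF9 and 7.48, 7.41, 7.42 and 7.29 with FSH/EGF. Its GDF9 arrays lay within the control range, and with FSH/EGF it rose by 0.63 ± 0.11 (adjusted p = 0.000676). Rrp12, which helps export of both subunits, read 6.69, 6.50, 6.39 and 6.74 in control and from 6.93 to 7.15 with FSH/EGF, a rise of 0.44 ± 0.09 (adjusted p = 0.00198). Nob1, the endonuclease that makes the final cut of the small subunit RNA, lay 0.33 ± 0.08 higher, and 0.10 higher under quantile normalization, where it missed the threshold.

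**Figure D3:**
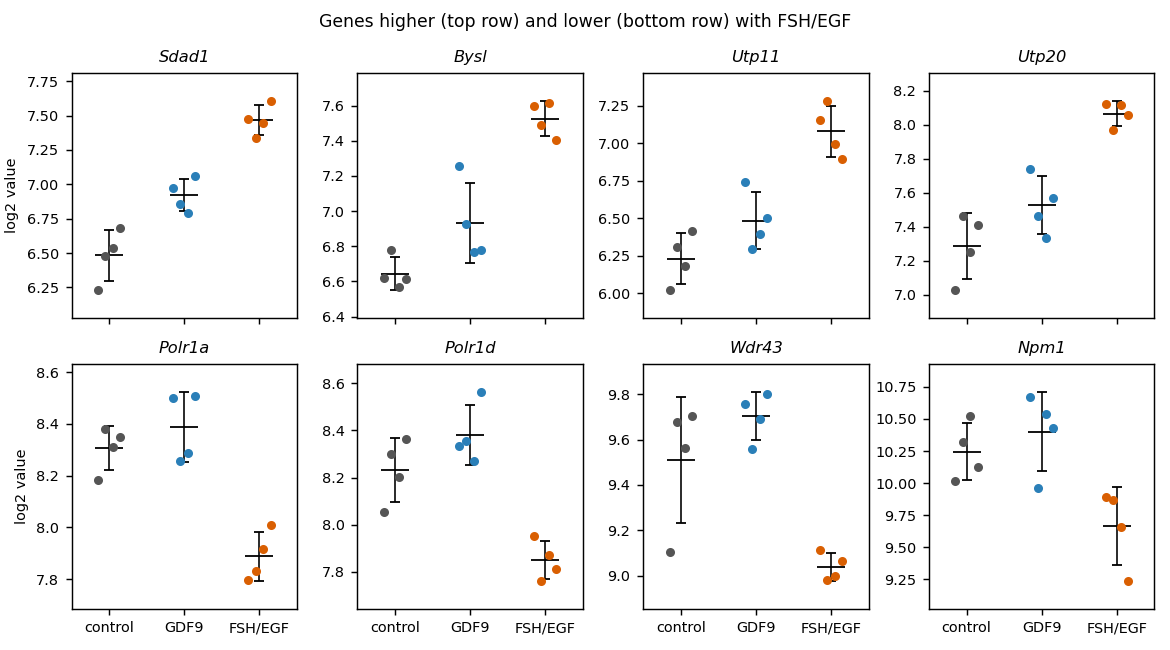
Log2 values (y axis, a separate scale in each panel) of 8 of the genes on each array, with bars for the group mean and 1 SD of 4 arrays. The FSH/EGF arrays of Sdad1, Bysl, Utp11 and Utp20 lie above all other arrays, and those of Polr1a, Polr1d and Npm1 below them, while for Wdr43 control array 1 lies among the FSH/EGF arrays.

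Of the 6 genes for core snoRNP proteins none passed the threshold in either direction, where 38.1% of the bright genes passed upward and 17% downward. Of their differences 5 of 6 were negative, with a median of -0.15, and the difference between these genes and the small subunit genes was not tested. In the box C/D particles, which guide ribose methylation, the methyltransferase fibrillarin (Fbl) read 8.71, 8.59, 8.66 and 8.66 in control and 8.74, 8.59, 8.56 and 8.85 with FSH/EGF. Its difference was 0.03 (95% interval -0.13 to 0.19). Nop58 read 7.68, 8.42, 8.42 and 8.60 in control and 8.55, 8.27, 8.33 and 7.95 with FSH/EGF, and differed by -0.0025 (-0.41 to 0.41). Nop56 read 8.82, 9.31, 9.23 and 9.43 in control and 9.10, 9.07, 9.04 and 8.84 with FSH/EGF, and differed by -0.19 (-0.47 to 0.10). For both genes control array 1 was far below the other control arrays, and without it Nop56 was called lower (-0.31, adjusted p = 0.0446). In the box H/ACA particles, which guide pseudouridylation, the pseudouridine synthase Dkc1 differed by -0.16 (-0.50 to 0.17), Nop10 by -0.14 (-0.36 to 0.07) and Gar1 by -0.29 (-0.57 to -0.01). Neither under quantile normalization nor under equal array medians was any of these 6 genes called higher. Under quantile normalization 3 of the 6, Nop56, Nop10 and Gar1, were called lower (differences of -0.41, -0.36 and -0.51), while under equal array medians none was. Of the bright genes 23.2% were called lower under quantile normalization and 12.8% under equal array medians.

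Genes of the large subunit were mixed. Of 13, 6 were called higher and 1 lower, which is 46.2% against 38.1% of bright genes, with a median of 0.18. Under quantile normalization 3 were higher and 1 lower, with a median of 0.07, beside 27.5% and 23.2% of the bright genes. Under equal array medians 6 were higher and 0 lower, beside 41.1% and 12.8% of the bright genes. Sdad1, a factor of large subunit maturation and export, read 6.23, 6.48, 6.54 and 6.68 in control, 6.97, 6.86, 6.79 and 7.06 with GDF9 and 7.48, 7.34, 7.45 and 7.60 with FSH/EGF. The 3 groups did not overlap, and the FSH/EGF level was 1.98-fold that of control, a difference of 0.98 ± 0.10. Rrp8, which methylates a base of the large subunit RNA, read 7.44, 7.58, 7.38 and 7.57 in control, 7.84, 7.77, 7.72 and 7.68 with GDF9 and 8.18, 8.23, 8.13 and 8.23 with FSH/EGF. Its groups did not overlap either, and it rose by 0.70 ± 0.07 (adjusted p = 6.86e-06).

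Noc3l lay 0.66 ± 0.17 higher, Ebna1bp2 0.56 ± 0.15 and Nip7 0.34 ± 0.11, all listed factors of large subunit assembly, and the listed Rrs1 lay 0.17 ± 0.18 higher without passing the threshold. Rrp1 rose by 0.30 ± 0.08 (adjusted p = 0.0139), while Nop2, Rrp1b, Nop16 and Rrp15 did not pass, with differences of 0.11 to 0.18. Nop2, which methylates the large subunit RNA, read 7.90, 7.85, 7.78 and 7.83 in control and 7.95, 8.02, 8.16 and 7.95 with FSH/EGF, so that its arrays did not overlap although its adjusted p was 0.139. Nop53, which in yeast recruits the RNA exosome to precursor particles, read 10.07, 10.01, 9.96 and 9.99 in control and 9.43, 9.68, 9.59 and 9.91 with FSH/EGF. It fell by 0.36 ± 0.11 (adjusted p = 0.0274), a call that was lost under equal array medians (adjusted p = 0.108) and without control array 1 (adjusted p = 0.0576). Gnl3, the GTP-binding protein nucleostemin, had the smallest absolute difference of the 13, 0.11 (95% interval -0.15 to 0.36). The PeBoW complex, needed for large subunit RNA processing, has 3 proteins, and all lay slightly higher: Pes1 by 0.31 (0.03 to 0.60), Bop1 by 0.29 (0.09 to 0.48) and Wdr12 by 0.26 (-0.08 to 0.61). Only Bop1 passed the threshold, control array 1 overlapped its FSH/EGF arrays, and its call was lost under 7 of the 22 alternatives, quantile normalization among them. Those of Nip7, Ebna1bp2 and Rrp1 were lost under 8, 3 and 1 of them.

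Among the remaining genes of the 54, which were placed in none of the groups above, the abundant nucleolar chaperone nucleophosmin (Npm1) lay lower. It read 10.02, 10.32, 10.52 and 10.12 in control, 10.67, 9.97, 10.54 and 10.43 with GDF9 and 9.89, 9.87, 9.66 and 9.24 with FSH/EGF. The FSH/EGF arrays were below all others, with a difference of -0.58 ± 0.18 from control and a call that was lost under 5 of the 22 alternatives, equal array medians among them. Nucleolin (Ncl), the other abundant nucleolar protein of the set, differed by -0.04 (95% interval -0.31 to 0.23). Nudcd1 had the largest difference of the 54, at 1.07 ± 0.14 or 2.10-fold. It read 5.96, 6.44, 6.11 and 6.29 in control, 6.93, 6.48, 6.65 and 6.53 with GDF9 and 7.48, 7.33, 7.28 and 6.98 with FSH/EGF, so its 3 groups did not overlap. Nolc1, a chaperone of snoRNP assembly, differed by 0.17 (-0.02 to 0.36) and Mybbp1a by 0.09 (-0.07 to 0.25).

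The 250 bases before the transcription starts of the 54 genes were searched for short motifs, in RefSeq promoters of build GRCm38.p6. Promoters were held there for 44 of the 54 genes, and their median GC content was 57.6% against 52.4% over all promoters of the table. The E-box CACGTG, the site of Myc and Max and of other factors of their class, was in 4 of 44 (9.09%), those of Utp18, Aatf, Nop2 and Utp25, against 6.86% of all genes and 8.12% of genes on the arrays. It was in 1 of 20 genes called higher with FSH/EGF, 3 of 21 not called and 0 of 3 called lower. CCGGAA on either strand, the core of sites for ETS family factors, was in 19 of 44 (43.2%) against 13.6% of all genes and 17.8% of genes on the arrays. It was in 10 of 20 genes called higher, 9 of 21 not called and 0 of 3 called lower. The palindromic consensus site of the factor NRF1 was in 0 of 44, against 0.877% of all genes. A match is a description of these letters and not a measured site, and the windows of members are richer in G and C than others. The motif shares were not set beside those of genes of like brightness. The 3 promoters with an E-box and a single annotated start are shown with that of Sdad1, which held neither motif and whose gene lay 0.98 higher. Each is 250 bases, read 5′ to 3′ on the gene's strand and ending at the base before the start, with capitals marking CACGTG and CCGGAA or its complement TTCCGG.
Utp18 (chr11:93885767-93886016, minus strand): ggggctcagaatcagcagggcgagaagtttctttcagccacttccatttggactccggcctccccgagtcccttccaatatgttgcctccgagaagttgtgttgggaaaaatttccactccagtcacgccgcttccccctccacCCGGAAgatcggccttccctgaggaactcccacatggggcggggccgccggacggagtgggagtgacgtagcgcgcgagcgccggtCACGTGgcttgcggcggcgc
Aatf (chr11:84513502-84513751, minus strand): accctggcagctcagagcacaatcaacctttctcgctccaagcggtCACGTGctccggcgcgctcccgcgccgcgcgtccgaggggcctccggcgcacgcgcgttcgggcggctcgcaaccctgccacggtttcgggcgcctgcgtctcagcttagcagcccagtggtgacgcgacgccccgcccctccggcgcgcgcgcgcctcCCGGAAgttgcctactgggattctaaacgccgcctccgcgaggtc
Nop2 (chr6:125131633-125131882, plus strand): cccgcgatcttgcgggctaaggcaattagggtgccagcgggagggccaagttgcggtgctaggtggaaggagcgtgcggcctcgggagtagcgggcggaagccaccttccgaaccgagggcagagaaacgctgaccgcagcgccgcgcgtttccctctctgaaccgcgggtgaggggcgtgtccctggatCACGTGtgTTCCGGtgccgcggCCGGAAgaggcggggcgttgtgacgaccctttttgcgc
Sdad1 (chr5:92310025-92310274, minus strand): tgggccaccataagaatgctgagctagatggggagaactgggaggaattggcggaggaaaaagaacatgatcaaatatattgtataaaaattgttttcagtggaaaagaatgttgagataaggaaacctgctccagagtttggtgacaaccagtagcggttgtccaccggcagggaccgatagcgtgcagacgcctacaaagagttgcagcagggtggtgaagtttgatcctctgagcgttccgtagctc
The E-box begins 20 bases before the start in Utp18, 204 in Aatf and 60 in Nop2. Against control, Utp18 was 0.65 higher with FSH/EGF, Aatf 0.31 (not called) and Nop2 0.18 (not called), and Utp25, the other gene with an E-box, differed by -0.09 (not called). Whether these differences depend on the motif was not tested.

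The second comparison asks how GDF9 changed these genes. None of the 54 passed the threshold, and none of the 35399 probe sets did in limma (lowest adjusted p 0.847), while 1590 probe sets (4.49%) had an unadjusted p under 0.05. All the same, 52 of the 54 genes had a positive difference, against 43.7% of all genes and 62.9% of the bright ones. The median was 0.20, with a range of -0.03 to 0.45, against -0.02 over all genes and 0.04 over the bright ones. At an unadjusted p under 0.05, 19 of the 54 were higher and 0 lower, against 2.66% of all genes and 4.87% of bright genes higher. Of the 19, 8 were among the 30 taken by symbol and 11 among the 24 listed, so this count too is a description. The 4 GDF9 arrays lay above all control arrays for 11 of the 54, of which 3 were among the 30 taken by symbol and 8 among the 24 listed, against 1.09% of all genes and 1.88% of bright genes. Fbl is in each of these counts by its brighter probe set (0.185), while its dimmer probe set gave -0.1136.

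Single arrays bore on these differences. GDF9 array 1 was the highest of its group for 41 of the 54 genes and control array 1 the lowest of its group for 36. Without control array 1 the median was 0.13 and 47 of 54 differences were positive, and without GDF9 array 1 the median was 0.17 and 47 were positive. Under quantile normalization of all arrays the median was 0.14, against 0.003 over the bright genes, and 49 were positive. The 54 genes share arrays, so that their directions are not independent of each other.

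The 5 largest differences with GDF9 were all of listed genes. Aatf, of a complex that acts in the processome, read 6.82, 7.16, 7.52 and 7.42 in control, 7.78, 7.57, 7.60 and 7.77 with GDF9 and 7.47, 7.74, 7.54 and 7.42 with FSH/EGF. The GDF9 arrays lay above the control arrays, by 0.45 ± 0.14 on average, and the FSH/EGF arrays overlapped both. Ltv1 and Nudcd1 each lay 0.45 higher (SE 0.10 and 0.14), Sdad1 0.44 ± 0.10 and Dkc1 0.38 ± 0.15. Dkc1 read 6.93, 7.56, 7.38 and 7.56 in control, 8.04, 7.58, 7.72 and 7.62 with GDF9 and 7.32, 7.36, 7.18 and 6.91 with FSH/EGF. It lay highest on the GDF9 arrays, which overlapped neither of the other groups. Among the genes taken by symbol, the GDF9 arrays of Nop10, Rrp8 and Rrp9 lay above all control arrays, by 0.29 ± 0.10, 0.26 ± 0.07 and 0.26 ± 0.08, each with an adjusted p of 0.971.

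The direct comparison of FSH/EGF with GDF9 uses the same arrays again, so it is not independent of the other comparisons. Of the 54 genes 11 were higher with FSH/EGF and 7 lower, against 18.6% of all genes higher and 10.5% lower, and 31.7% and 15.5% of the bright ones. The median was 0.12, and under quantile normalization it was -0.02, with 8 genes (14.8%) higher and 13 lower. Of the bright genes 24.4% were higher and 20.4% lower under that normalization. Of the genes taken by symbol, Nop9, Utp11, Utp4, Utp20 and Rrp8 were higher with FSH/EGF by 0.44 to 0.64. Polr1d (-0.53, adjusted p = 0.000616), Polr1a (-0.50, adjusted p = 0.00065), Nop10 (-0.43, adjusted p = 0.00662) and Nop53 (-0.33, adjusted p = 0.0481) were lower. The listed genes with lower calls were Npm1 (-0.74 ± 0.18), Wdr43 (-0.66 ± 0.12) and Dkc1 (-0.55 ± 0.15). All 6 core snoRNP genes among the 54 had negative differences, with a median of -0.33, and of them Nop10 and Dkc1 were called. Outside the 54, Snu13 differed by 0.03 and Nhp2 by -0.11, and neither was called. For Nop10 the GDF9 arrays, at 8.09, 7.90, 7.99 and 7.95, lay above both the control arrays (7.49 to 7.82) and the FSH/EGF arrays (7.30 to 7.70).

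Other genes of the same pathway, in 5 lists written from general knowledge with the earlier results known, were described in the same way for FSH/EGF against control. Of 117 measured, 53 (45.3%) were called higher and 2 lower, with a median of 0.31, beside 38.1% higher among bright genes. Like the listed genes they are given without p-values, and their calls, by the same threshold, are a description. Of 36 other small subunit factors 23 (63.9%) were called higher and 0 lower, with a median of 0.39. Wdr36, a processome protein, read 6.95, 7.63, 7.46 and 7.81 in control and 8.78, 8.64, 8.73 and 8.61 with FSH/EGF, a difference of 1.23 ± 0.17. Nol6, another, read 8.37, 8.34, 8.46 and 8.46 in control and 9.47, 9.42, 9.56 and 9.68 with FSH/EGF, a difference of 1.12 ± 0.09. For both genes the FSH/EGF arrays lay above all other arrays. Of 41 other large subunit factors 17 (41.5%) were called higher and 0 lower, with a median of 0.29. Gnl3l, a GTP-binding relative of Gnl3, lay 1.03 ± 0.14 higher and Sbds, which acts in the last step of large subunit maturation, 0.85 ± 0.09.

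The 13 exosome genes, whose products trim ribosomal RNA precursors, held 5 (38.5%) called higher and 1 (7.69%) called lower, beside 38.1% and 17% of the bright genes. Exosc3 lay 1.03 ± 0.17 and Mphosph6 0.94 ± 0.23 higher, while the nuclease Dis3 differed by -0.68 ± 0.15. Of 11 other snoRNP genes 3 (27.3%) were called higher and 0 lower, with Nufip1 (0.57 ± 0.14) and Znhit3 (0.43 ± 0.09), both assembly factors of box C/D particles, the largest. Of 16 other genes of the polymerase I machinery 5 (31.2%) were called higher and 1 (6.25%) lower, so that the higher share of these 3 lists was near or below that of the bright genes. Polr2h, shared by all 3 nuclear polymerases, lay 0.86 ± 0.21 higher and Znrd1, a small polymerase I subunit, 0.67 ± 0.12. Cd3eap, another polymerase I subunit, lay 0.36 ± 0.08 higher. Twistnb, also a polymerase I subunit, read 7.75, 7.66, 7.48 and 7.75 in control and 7.04, 7.01, 6.93 and 6.75 with FSH/EGF, a difference of -0.73 ± 0.10. With GDF9 none of the 117 was called, 106 had a positive difference and the median was 0.15. Under quantile normalization 26 of the 117 (22.2%) were higher with FSH/EGF, beside 17.4% of all genes and 27.5% of the bright ones.

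**Figure D4:**
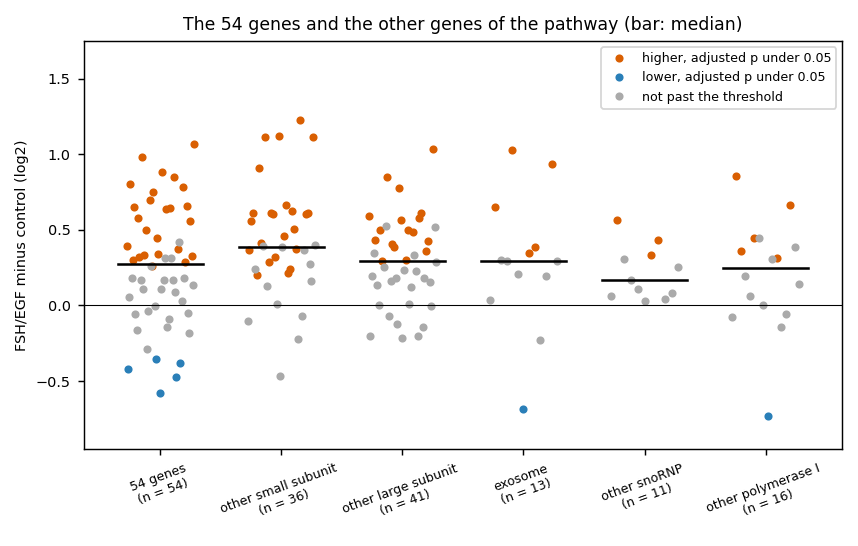
FSH/EGF minus control (log2, y axis) for the 54 genes and for 5 lists of other genes of the pathway; each point is a gene, coloured by its call, and the black bar is the median. The other small subunit list has 23 of 36 genes higher and the highest median, 0.39, and the snoRNP list the lowest, 0.17.

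Genes of the Myc network were measured beside these genes. Myc itself read 9.24, 9.57, 9.67 and 9.79 in control, 9.41, 9.35, 9.51 and 10.12 with GDF9 and 6.42, 6.76, 6.72 and 7.33 with FSH/EGF. Its FSH/EGF arrays lay well below every other array, with a difference of -2.76 ± 0.21, a 6.77-fold lower level. Mycn, a relative with the same DNA site, differed by -1.86 ± 0.15 and Mycl by -1.14 ± 0.15. The FSH/EGF arrays of both lay below all other arrays, and the 3 genes were called lower under every one of the 22 alternatives. Max, the partner of all 3, differed by 0.10 (95% interval -0.31 to 0.51).

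Differences of the other genes of the network were smaller. Mxd4, which binds Max in place of Myc and represses, was called lower, with a difference of -0.28 ± 0.09. The Max-binding repressors Mnt (0.26 ± 0.08) and Mga (0.51 ± 0.15) and the Max-like protein Mlx (0.53 ± 0.17) were called higher. These 4 calls were lost under some alternatives, among them quantile normalization for the 3 that were higher. Mxd1 (-0.09 ± 0.08), Mxd3 (-0.20 ± 0.09) and Mxi1 (0.07 ± 0.09) did not pass the threshold. With GDF9 the differences from control were 0.03 ± 0.21 for Myc, -0.17 ± 0.15 for Mycn and 0.13 ± 0.15 for Mycl, and none of the 11 genes was called. On the FSH/EGF arrays, Myc, Mycn and Mycl were low. Of the 54 genes 25 (46.3%) were called higher there, beside 38.1% of the bright genes and 21.9% of all genes. No relation between the Myc genes and the 54 was tested.

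**Figure D5:**
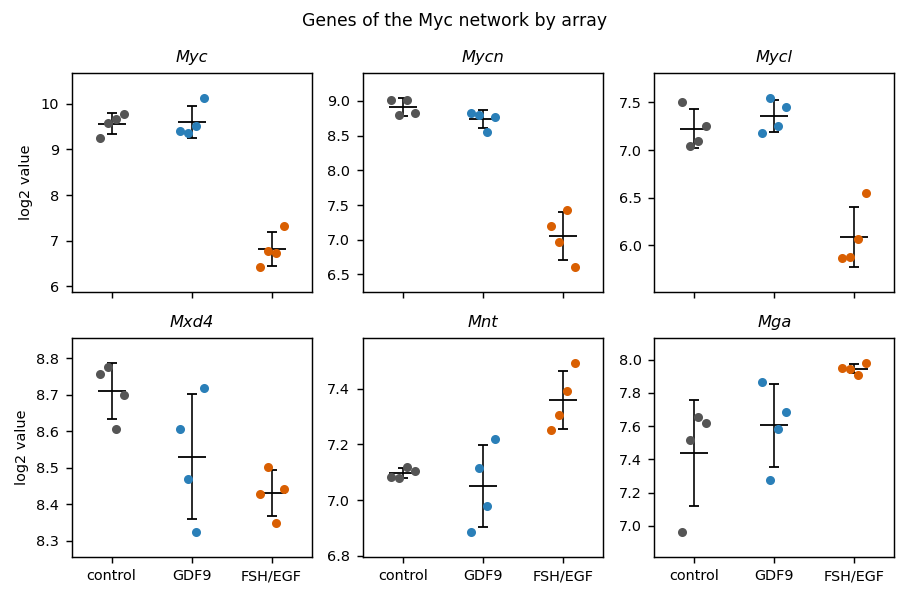
Log2 values (y axis, a separate scale in each panel) of 6 genes of the Myc network on each array, with bars for the group mean and 1 SD of 4 arrays. Myc, Mycn and Mycl lie lower on all 4 FSH/EGF arrays than on any other array, and Mnt lies above all control and GDF9 arrays there.

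Outside all these lists, the 5 genes whose values over the 12 arrays were most like the mean of the 54 were Gspt1 (Pearson r = 0.962), Gtf3c6 (0.956), Anapc1 (0.956), Kmt5b (0.952) and Rbm28 (0.951). They were chosen for this likeness, and the 12 points share arrays and groups, so the values are a description. Gspt1, a translation termination factor, read 9.34, 9.71, 9.53 and 9.76 in control, 10.06, 9.73, 9.82 and 9.89 with GDF9 and 10.16, 9.98, 10.04 and 9.96 with FSH/EGF. Like many of the 54 genes, it was lowest on control array 1 and, within its group, highest on GDF9 array 1.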

How the data were processed

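The deposited values are on a log2 scale, one table for all 12 arrays, and were normalized by the authors. Per the submitters' processing notes RMA, Partek and GCOS were used, without version or role, and the genome build of the probe sets is not given in the sources used here. Probe sets were named from the platform annotation: 21789 of 35399 had 1 symbol, 1621 several and 11989 none, and only those with 1 symbol were used for genes. All 54 genes matched a RefSeq symbol. The members and all gene lists were chosen with earlier results of these data known.

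Differences of group means were tested with limma 3.58.1 in R 4.3.3 (lmFit and eBayes, 1 mean per group, all 12 arrays), with Benjamini-Hochberg adjustment over all 35399 probe sets and a threshold of 0.05. The script was tested on simulated data. By rule the text names, per role, up to 4 genes with the largest difference, every gene called lower, the gene with the smallest difference, whole small complexes, the 5 largest differences with GDF9, the Myc list, the 2 largest rises and falls of each other list, and 5 genes by likeness; genes named beyond that were chosen after their values were seen. An E-box promoter was printed only for a gene with 1 annotated start, which left out Utp25. Alternatives were the variance moderation, the scaling, a filter on dim rows, the probe set, array weights, a replicate block and arrays left out. The number of arrays limits the precision.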

Additional observations from a re-analysis of the deposited data

Results flagged for a closer look

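In each group of 4 arrays of 77 named genes, a single array was looked for whose gap to the nearest other array took up most of the group's range (Dixon's 95% criterion, which chance meets in about 1 of 20 groups). It was met in 11 of 231 groups (4.76%), which is about that share.

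In control, array 1 stood high for Bop1 at 8.11 (other arrays 7.83 to 7.87) and for Mlx at 8.58 (7.72 to 7.86), and array 4 stood high for Polr2h at 7.13 (6.46 to 6.56). With GDF9, array 1 stood high for Rrp9 at 7.92 (7.59 to 7.62) and for Exosc3 at 6.36 (5.75 to 5.82), and array 3 stood low for Polr1b at 7.70 (8.09 to 8.15). With FSH/EGF, array 1 stood high for Noc3l at 7.18 (6.98 to 7.01) and for Rrp1 at 9.49 (9.35 to 9.37), and array 2 for Nop16 at 8.42 (8.19 to 8.20). Array 3 stood low there for Utp3 at 6.48 (6.76 to 6.81) and array 4 for Dis3 at 7.14 (7.35 to 7.39).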

How the results depend on the processing

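Of the 30 calls among the 54 genes with FSH/EGF against control, 16 passed under all 22 alternatives (14 higher and 2 lower, Polr1a and Wdr43) and 14 were lost under some. The median difference over the 54 genes, 0.28, was 0.0871 under quantile normalization and 0.3529 under equal array medians; against GDF9 the median, 0.12, turned to -0.0248 under quantile normalization. Of all probe sets called with FSH/EGF against control 57% were higher, against 71.9% under equal array medians and 52.4% under quantile normalization. With each array left out in turn, 24 to 30 of the 54 genes were called with FSH/EGF against control (median 0.21 to 0.29), 0 with GDF9 against control (0.13 to 0.25) and 13 to 22 with FSH/EGF against GDF9 (0.05 to 0.18). Without control arrays 1 and 4 together, 21 (38.9%) were higher and 4 lower with FSH/EGF against control, beside 34.1% and 14.5% of the bright genes. The labels do not say whether the replicate numbers pair the arrays. After each group's mean was subtracted, correlations of the 12 pairs of same-numbered arrays were -0.389 to 0.221, with 7 positive and 5 negative. For 2 of 12 arrays the same-numbered array was the closest in both other groups. These values do not settle whether the arrays are paired. With the replicate block 29, 0 and 14 of the 54 genes were called in the 3 comparisons, against 30, 0 and 18 without it. The cause of these shifts was not tested.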
